A study of Homo sapiens with 4 samples.

Results

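The genes described are 10 feedback and response genes of mitogen-activated protein kinase (MAPK) signalling: the dual-specificity phosphatases DUSP1, DUSP2, DUSP4, DUSP5, DUSP6 and DUSP10, and the ERK feedback genes SPRY2, SPRED1, PHLDA1 and IER3. They were picked with earlier results of these data known. Their probe sets were taken by symbol, as all that the array's annotation gives to 1 of these symbols alone. The genes made up 10 of 19775 genes and 24 of 54675 probe sets. They were measured in U937, a line of monocytic cells from a human histiocytic lymphoma, on 4 Affymetrix U133 Plus 2.0 arrays with 1 array for each treatment. The combination array held cells exposed to both 0.05% Sonazoid and ultrasound (intensity 0.3 W/cm2, lasting 1 min), the ultrasound only and Sonazoid only arrays held cells given 1 of these agents at the same setting, and the control array held untreated cells. Sonazoid is a suspension of lipid-shelled gas microbubbles used as ultrasound contrast agent. All cells were kept at 37 °C. The 3 treated cultures were collected after 3 h of incubation, while the labels name no incubation time for the control.

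MAPKs are kinases that pass growth and stress signals to the nucleus along the ERK, JNK and p38 branches, and each is switched on by phosphorylation of a threonine and a tyrosine in its activation loop. The DUSP phosphatases remove both phosphates. Several of them are made only after the kinases have been active, so that the pathway builds its own brake, and in monocytes and macrophages DUSP1 is known for limiting the output of inflammatory cytokines. Sprouty (SPRY) and SPRED proteins act further upstream, on the steps that activate Ras and Raf. PHLDA1 and IER3 are early response genes, counted here with the ERK feedback genes.

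The promoter bases upstream of 4 of the genes are shown, because DUSP1, PHLDA1 and DUSP10 had the highest mean difference of the 10 genes over both ultrasound comparisons described below, and DUSP2 the lowest. Each is the 250 bases before the RefSeq start site of assembly GRCh38.p14, for DUSP10 the outermost of its 2 start sites, written 5′ to 3′ on the gene's strand. Capitals mark matches to the cAMP response element (CRE) TGACGTCA, to its core TGACG and to the TATA motif TATAAA, on either strand.
DUSP1 (chr5:172771196-172771445, minus strand): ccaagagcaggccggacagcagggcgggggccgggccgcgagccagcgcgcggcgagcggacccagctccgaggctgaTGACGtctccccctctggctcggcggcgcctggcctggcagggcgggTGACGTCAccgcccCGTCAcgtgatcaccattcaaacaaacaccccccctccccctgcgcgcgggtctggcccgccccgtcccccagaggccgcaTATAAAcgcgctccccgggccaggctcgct
PHLDA1 (chr12:76031777-76032026, minus strand): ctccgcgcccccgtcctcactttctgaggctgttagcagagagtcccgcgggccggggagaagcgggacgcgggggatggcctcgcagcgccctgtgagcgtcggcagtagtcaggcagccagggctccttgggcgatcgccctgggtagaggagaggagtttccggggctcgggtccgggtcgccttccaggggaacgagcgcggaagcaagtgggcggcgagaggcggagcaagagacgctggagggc
DUSP10 (chr1:221742090-221742339, minus strand): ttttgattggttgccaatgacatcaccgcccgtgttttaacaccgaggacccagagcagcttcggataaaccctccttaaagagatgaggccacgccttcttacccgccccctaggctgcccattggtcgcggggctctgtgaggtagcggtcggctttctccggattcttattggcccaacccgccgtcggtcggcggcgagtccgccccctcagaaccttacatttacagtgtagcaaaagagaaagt
DUSP2 (chr2:96145441-96145690, minus strand): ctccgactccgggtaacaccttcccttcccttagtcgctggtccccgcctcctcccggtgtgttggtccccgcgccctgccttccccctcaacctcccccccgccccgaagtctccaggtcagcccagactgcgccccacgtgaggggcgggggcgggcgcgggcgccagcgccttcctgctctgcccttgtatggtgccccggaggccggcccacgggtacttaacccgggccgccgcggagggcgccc

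The DUSP1 window held 1 full CRE, from 125 to 118 bases before the start site, and 4 copies of the core, of which 2 lie within the full CRE on opposite strands and overlap. It also held TATAAA from 30 to 25 bases before the start. A full CRE was found in 1.65% of all 35116 RefSeq promoter windows of this length, the core in 21.2% and TATAAA in 10.7%. Of the 10 windows of 7 of the genes that were searched, 1 other held a match, a core 190 to 186 bases before a start of SPRY2. The AP-1 motif TGANTCA, the CArG box bound by serum response factor and the NF-kB site were in none of these windows, against 6.57%, 1.16% and 5.21% of all windows. These are matches of letters in a short window, and no binding was measured.

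Signals are probe set intensities after each array was multiplied by 1 factor to give all arrays the same trimmed mean. The median over all 4 scaled arrays, 23.8, served as floor, to which lower values were raised before log2 differences were computed. Of the 24 probe sets 20 were above the floor on all arrays and 1, of DUSP1, was below it on all. As each group is 1 array, no replicate error can be given and no test between groups was made. An additive model of the 2 agents over the 4 arrays, which would leave 1 residual degree of freedom, was not fitted. The design offers a partial stand-in, because the response to ultrasound was measured on 2 pairs of arrays that share none: ultrasound only against control, and the combination against Sonazoid only. Their disagreement, called the departure from additivity, holds array noise of 4 arrays together with any true interaction. It was sized over genes above the floor on all arrays. For the 7612 with a mean signal above 151 it had a median size of 0.14 (log2) and a 95th percentile of 0.55. For the 3016 dimmer ones these were 0.38 and 1.21. For the 10 genes, each by its brightest probe set, the median size was 0.15 and the highest 0.30.

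Most markers of the labelled cell line were present. Of 11 markers of U937 measured, 9 were above the floor on every array, among them LYZ, at 5319 to 5863, and the granule proteases CTSG, ELANE, AZU1 and PRTN3. MPO lay at 3.75 to 28.6, and FCGR1A was below the floor on all arrays. Of the markers of mature monocytes that were measured, CD14 was below the floor on all arrays and ITGAM above it on all, at 70.1 to 108. Of 6 T and NK cell markers NKG7 alone was above the floor throughout, at 2771 to 3197. Of the B cell, erythroid, fibroblast and endothelial markers, CD79A (72.5 to 107), PAX5 (85.1 to 102), HBB (34.9 to 63.4), COL1A1 (81.2 to 131) and PECAM1 (648 to 810) were above it throughout. CD79B, CDH5 and the epithelial markers EPCAM and KRT18 were below it on all arrays. A signal above the floor thus does not by itself mark a cell type here. The RNA came from whole cultures, so a change in every cell and a larger change in some of the cells cannot be told apart.

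**Figure D1:**
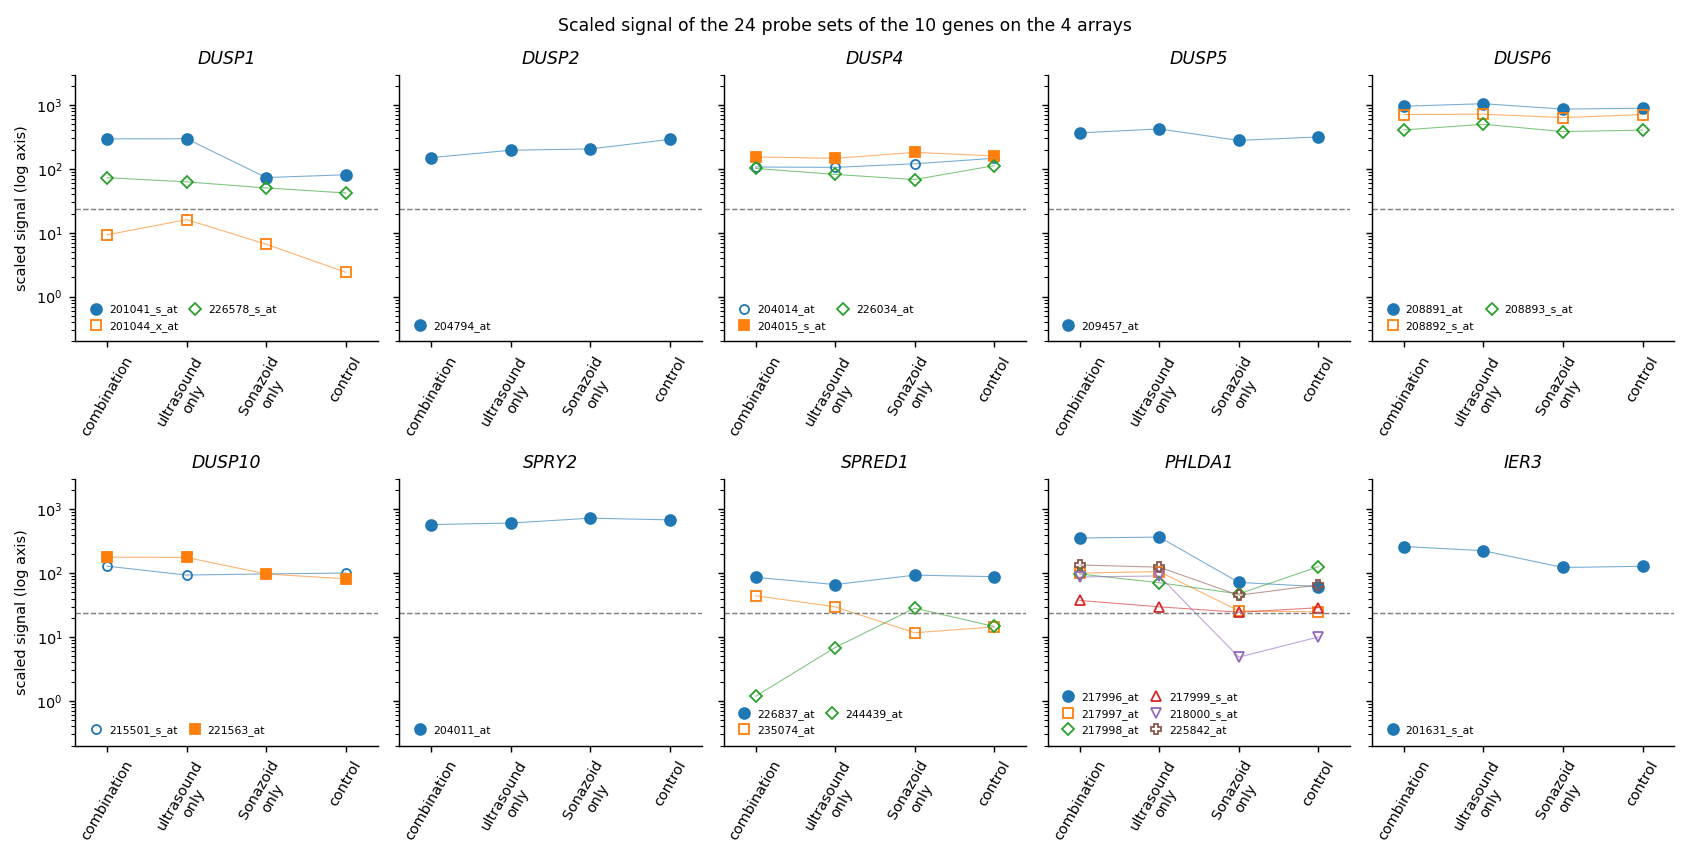
Scaled signal on a log axis (arbitrary intensity units) of each of the 24 probe sets on the combination, ultrasound only, Sonazoid only and control arrays, 1 panel per gene. Filled symbols are the brightest probe set of a gene, thin lines join the values of a probe set, and the dashed line is the floor of 23.8. By their brightest probe sets DUSP1, DUSP10, IER3 and PHLDA1 sit higher on both arrays with ultrasound. DUSP5 is slightly higher on them, and the other genes lie nearly level or slightly lower. Probe sets 215501_s_at of DUSP10 and 217998_at of PHLDA1 are not higher on both, while 235074_at of SPRED1 is.

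By the brightest probe set of each gene, ultrasound, with or without Sonazoid, went with higher transcripts of DUSP1, PHLDA1, DUSP10 and IER3. DUSP5 and DUSP6 were slightly higher, and DUSP2, DUSP4, SPRY2 and SPRED1 were slightly lower. As the 10 genes were picked with earlier results of these data known, counts above the share of all genes are no independent support. In ultrasound only against control 3 of the 10 genes were at least 2-fold higher (DUSP1, DUSP10 and PHLDA1), where 1.65% of all 13043 genes measured were. In the combination against Sonazoid only 3 of 10 were at least 2-fold higher (DUSP1, PHLDA1 and IER3), against 1.46% of 12931 genes. DUSP1 and PHLDA1 passed in both, as did 49 of 12009 genes, or 0.408%, while 0.0333% of these genes and none of the 10 were at least 2-fold lower in both. At 1.5-fold in both comparisons the 4 genes passed, against 1.77% of genes. None of the 10 was at least 2-fold lower in either comparison, against 0.721% and 0.711% of genes. The median of the 10 genes was 0.32 (log2) in ultrasound only against control and 0.27 in the combination against Sonazoid only, where the medians of all genes were 0.023 and -0.0016. In each comparison 6 of the 10 lay above 0, a share near the 53.2% and 49.7% of all genes that did so. Both counts of 3 were 1, PHLDA1, with a floor at the 75th percentile of the signals (151), because the signals without ultrasound lie under it.

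**Figure D2:**
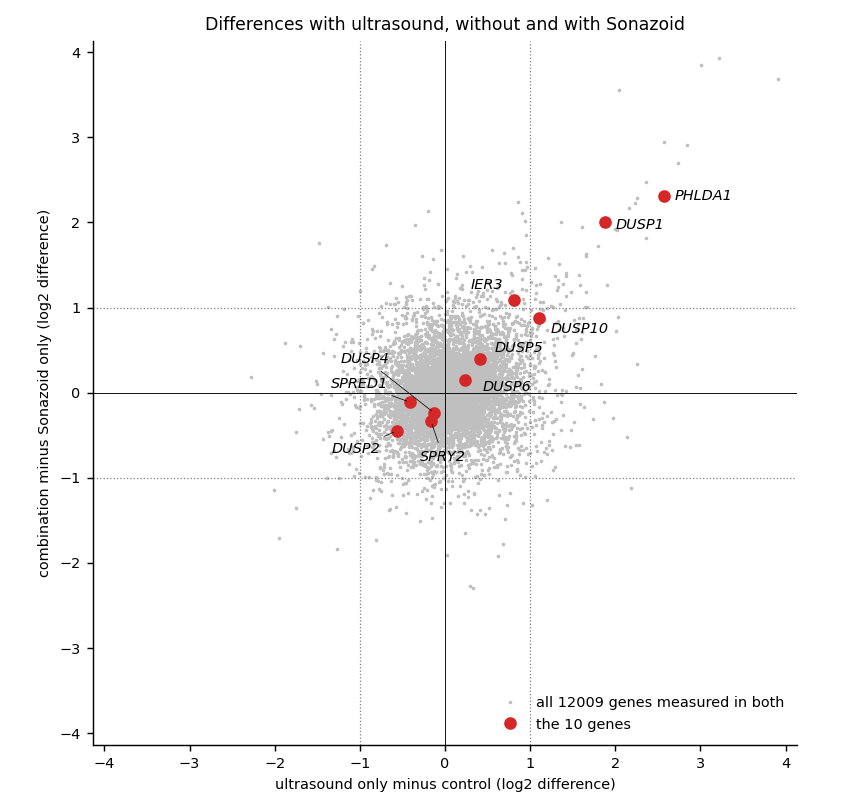
Each of 12009 genes is placed by its log2 difference of ultrasound only minus control (horizontal) and of the combination minus Sonazoid only (vertical), which share no array; grey dots are all genes, red dots the 10 genes, and dotted lines mark 2-fold. PHLDA1 (2.57 and 2.31) and DUSP1 (1.87 and 2.01) lie far out in the upper right, DUSP10 and IER3 near the corner of the 2-fold lines, and the other 6 within the cloud.

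DUSP1 encodes the founding MAPK phosphatase, a nuclear enzyme that inactivates p38 and JNK and also ERK. Its brightest probe set (201041_s_at) read 295 in the combination, 296 with ultrasound only, 73.2 with Sonazoid only and 80.8 in control. The values with ultrasound were alike, and so were those without, with a wide gap between. DUSP1 was 3.67-fold higher in ultrasound only than in control and 4.03-fold higher in the combination than in Sonazoid only, so the log2 differences of 1.87 and 2.01 were 0.14 apart. A second probe set (226578_s_at) read 72.8, 62.5, 50.3 and 42.0 in the same order of arrays. It kept the direction at a smaller size, 1.49-fold and 1.45-fold higher. The third (201044_x_at) was below the floor on all arrays, at 2.41 to 16.1, and gives no difference. All 3 have names ending in s_at or x_at, which mark probes that may bind more than 1 transcript. With the mean of the 3 the log2 differences of DUSP1 were 0.82 and 0.85, under 2-fold. That mean includes the third probe set, which adds no difference because of the floor. Over the 2 measured probe sets the medians were 1.22 and 1.27. With the higher floor the brightest probe set gave 0.97 and 0.97. This is the gene whose printed promoter window holds the full CRE.

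DUSP10 encodes a phosphatase that prefers JNK and p38 over ERK. Its brightest probe set (221563_at) read 178 in the combination, 176 with ultrasound only, 97.2 with Sonazoid only and 81.7 in control. Both arrays with ultrasound were above both without. The gene was 2.16-fold higher in ultrasound only than in control and 1.83-fold higher in the combination than in Sonazoid only. The other probe set of DUSP10 (215501_s_at) did not share this pattern, at 129 in the combination, 93.4 with ultrasound only, 97.4 with Sonazoid only and 100.5 in control. Only the combination stood above the rest on it, and its log2 differences were -0.11 in ultrasound only against control and 0.40 in the combination against Sonazoid only. DUSP10 is among the dimmer genes. By its brightest probe set the log2 differences of 1.11 and 0.87 were under the 95th percentile of the departure of dim genes (1.21).

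DUSP2 encodes a nuclear phosphatase found mainly in blood and immune cells. Its single probe set (204794_at) read 150.4 in the combination, 196 with ultrasound only, 205 with Sonazoid only and 290 in control, the highest value on the untreated array and the lowest where both agents were given. DUSP2 was 1.48-fold lower in ultrasound only than in control and 1.37-fold lower in the combination than in Sonazoid only. With Sonazoid it was also lower, 1.41-fold in Sonazoid only against control and 1.3-fold in the combination against ultrasound only. The combination was 1.93-fold below control. A pattern of at least 1.2-fold lower in all 4 of these comparisons, chosen after the values were seen, was shared by 36 of 11707 genes (0.308%) and by no other of the 10. The 4 comparisons share arrays and so are not independent. Their log2 differences for DUSP2 were -0.57, -0.45, -0.50 and -0.38. The 95th percentile of the departure of genes with a mean signal above 151, as DUSP2 has, was 0.55. With the values as deposited the difference between the combination and ultrasound only was -0.16 (log2), less than 1.2-fold.

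DUSP4 encodes a nuclear phosphatase close in sequence to DUSP1. Its brightest probe set (204015_s_at) read 154 in the combination, 146 with ultrasound only, 181 with Sonazoid only and 159 in control. The groups were nearly level, with log2 differences of -0.13 and -0.24 in the ultrasound comparisons. Of the other DUSP4 probe sets, 204014_at read 107 in the combination, 106 with ultrasound only, 120 with Sonazoid only and 147 in control, and its differences were -0.47 and -0.17. The remaining one (226034_at) read 102, 81.9, 68.0 and 112 in that order of arrays. It was 1.37-fold lower in ultrasound only than in control but 1.49-fold higher in the combination than in Sonazoid only, with its lowest value on the Sonazoid only array.

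DUSP5 and DUSP6 both act on ERK, DUSP5 in the nucleus and DUSP6 in the cytoplasm. DUSP5 (209457_at) read 366 in the combination, 422 with ultrasound only, 279 with Sonazoid only and 317 in control. The arrays with ultrasound were above both without, by 1.33-fold in ultrasound only against control and 1.31-fold in the combination against Sonazoid only. These log2 differences were 0.41 and 0.39. DUSP6 had 3 probe sets, of which the brightest (208891_at) read 958 in the combination, 1048 with ultrasound only, 863 with Sonazoid only and 891 in control. All 3 DUSP6 probe sets were within 0.31 of 0 (log2) in both ultrasound comparisons, from 0.02 to 0.30 in ultrasound only against control and from 0.09 to 0.16 in the combination against Sonazoid only. The lowest of these, of 208892_s_at, turned to -0.02 with the values as deposited.

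SPRY2, an inhibitor of signalling from receptor tyrosine kinases to Ras and ERK, read 577 in the combination, 609 with ultrasound only, 726 with Sonazoid only and 683 in control (204011_at). Both arrays with ultrasound were below both without. SPRY2 was 1.12-fold lower in ultrasound only than in control and 1.26-fold lower in the combination than in Sonazoid only. SPRED1, which brings the Ras inhibitor neurofibromin to the membrane, read 86.2, 66.4, 93.2 and 88.2 on the combination, ultrasound only, Sonazoid only and control arrays (226837_at). Its differences of -0.41 and -0.11 (log2) are within the spread that dim genes showed between the ultrasound comparisons. A dimmer SPRED1 probe set (235074_at) was below the floor on both arrays without ultrasound and read 44.4 in the combination and 29.8 with ultrasound only, at least 1.86-fold and 1.25-fold higher. The third (244439_at) was above the floor on the Sonazoid only array alone, at 28.4.

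PHLDA1 encodes a protein with a pleckstrin homology-like domain and is among the transcripts that follow ERK activity. Its brightest probe set (217996_at) read 356 in the combination, 367.5 with ultrasound only, 71.8 with Sonazoid only and 61.7 in control. It was the most different of the 10 genes, 5.96-fold higher in ultrasound only than in control and 4.96-fold higher in the combination than in Sonazoid only. Of its 6 probe sets, 217997_at read 100.2 in the combination, 106 with ultrasound only, 25.7 with Sonazoid only and 24.7 in control, and 218000_s_at read 87.3, 90.5, 4.84 and 10.02. These shared the step between arrays with and without ultrasound, 4.29-fold and 3.89-fold for 217997_at and at least 3.80-fold and 3.66-fold for 218000_s_at, whose values without ultrasound were under the floor.

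The remaining probe sets of PHLDA1 disagreed with these in size or direction. The fourth (225842_at) read 134 in the combination, 124 with ultrasound only, 45.2 with Sonazoid only and 65.5 in control, 1.90-fold and 2.98-fold higher in the ultrasound comparisons. The fifth (217999_s_at) lay near the floor at 37.4, 29.7, 24.5 and 28.8 in the same order, with log2 differences of 0.05 and 0.61. The sixth (217998_at) read 97.2 in the combination, 71.0 with ultrasound only, 47.4 with Sonazoid only and 126.5 in control. Its highest value was on the control array, so it was 1.78-fold lower in ultrasound only than in control, while it was 2.05-fold higher in the combination than in Sonazoid only. Over the 6 probe sets the log2 difference of ultrasound only from control ran from -0.83 to 2.57 with a median of 1.42, and that of the combination from Sonazoid only ran from 0.61 to 2.31 with a median of 1.72. Such disagreement was seen in other genes too. Of 72 genes at least 2-fold higher in ultrasound only than in control with another measured probe set, 11 (15.3%) had one that was at least 1.5-fold lower, and in the combination against Sonazoid only it was 3 of 59 genes (5.08%), PHLDA1 not among them.

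**Figure D3:**
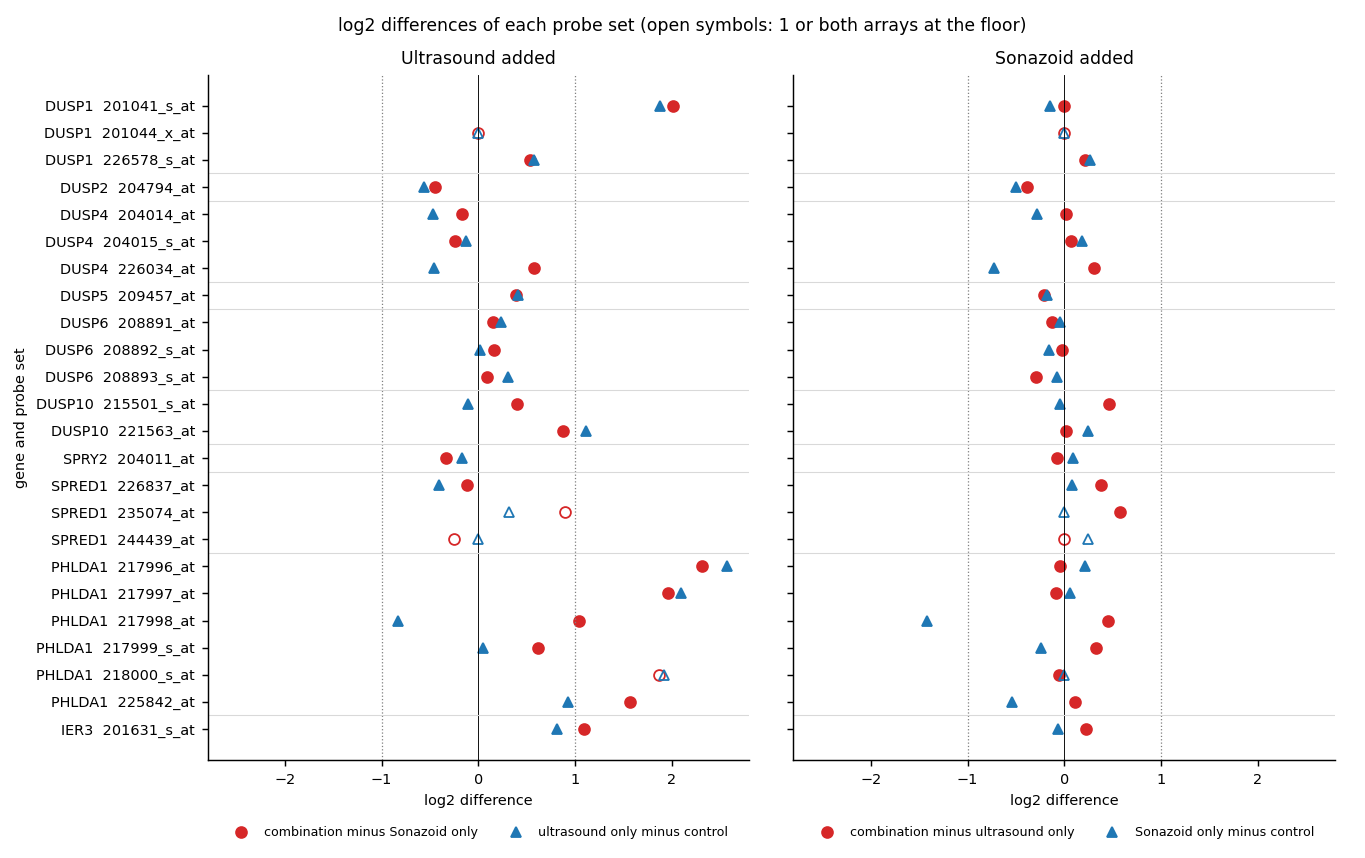
log2 difference of each probe set, in rows by gene, when ultrasound is added (left panel) and when Sonazoid is added (right panel). Red circles are measured in the presence of the other agent and blue triangles in its absence, open symbols have 1 or both arrays at the floor, and dotted lines mark 2-fold. The pairs of symbols lie close together for DUSP1, DUSP5 and 217996_at of PHLDA1, and far apart for 217998_at of PHLDA1 (-0.83 and 1.04) and 226034_at of DUSP4 (-0.46 and 0.58).

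IER3, an early response gene whose product is an ERK substrate and modulates apoptosis, had 1 probe set (201631_s_at) that read 262 in the combination, 225 with ultrasound only, 123 with Sonazoid only and 128 in control. Both arrays with ultrasound were above both without. IER3 was 1.75-fold higher in ultrasound only than in control and 2.13-fold higher in the combination than in Sonazoid only, with log2 differences of 0.81 and 1.09.

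The combination against control asks which genes respond when both agents are given. DUSP1 was 3.65-fold, PHLDA1 5.77-fold, DUSP10 2.18-fold and IER3 2.04-fold higher, so 4 of the 10 genes were at least 2-fold higher, against 1.39% of 12962 genes. None was at least 2-fold lower, against 0.872%, and DUSP2 came nearest. The median of the 10 genes was 0.16 (log2), against -0.0030 over all genes. This count was 2 when no floor was set and 16 was added to each value, where DUSP10 (0.99) and IER3 (0.95) lay just under a log2 difference of 1. It was also 2 with the mean of all probe sets, where PHLDA1 and IER3 passed.

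The comparisons in which Sonazoid was added held the smallest differences. None of the 10 was at least 2-fold different in Sonazoid only against control, where 0.652% of 12875 genes were higher and 0.715% lower. None was so in the combination against ultrasound only, where 0.7% of 13151 genes were higher and 1.16% lower. In Sonazoid only against control the 10 genes ran from -0.50 for DUSP2 to 0.25 for DUSP10, with a median of 0.02. In the combination against ultrasound only they ran from -0.38 for DUSP2 to 0.38 for SPRED1, with a median of -0.03. Of the 24 probe sets, the largest difference with Sonazoid was that of 217998_at of PHLDA1, 2.67-fold lower in Sonazoid only than in control but 1.37-fold higher in the combination than in ultrasound only. Without scaling, the median over all genes was 0.19 in that comparison and 0.17 in the combination against control, and the small negative differences of DUSP1, DUSP5, DUSP6, SPRY2 and PHLDA1 between the combination and ultrasound only became positive. The departures of the 10 genes from additivity ran from -0.27 for PHLDA1 to 0.30 for SPRED1, and those of the 8 genes with a mean signal above 151 were all under the 95th percentile of bright genes (0.55). Differences of this size cannot be told from array noise with 1 array per group.

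Related genes were listed by role, again with earlier results of these data known. Of 14 measured genes of the Ras-ERK cascade, from adaptors such as GRB2 to the ERK kinases MAP2K1 and MAP2K2, 0 were at least 2-fold different in either ultrasound comparison, where 1.65% and 1.46% of all genes were higher and 0.721% and 0.711% lower, so a count of 0 is near the background. The list medians were -0.01 (log2) in ultrasound only against control and -0.08 in the combination against Sonazoid only. Single members were farther from 0, such as MAPK3, which encodes ERK1 and was 1.6-fold higher in the combination than in Sonazoid only and 1.14-fold lower in ultrasound only than in control. Of 16 genes of the JNK and p38 cascades 0 and 1 were at least 2-fold higher and 0 lower, with medians of 0.18 and 0.03. The 1 was MAPK11, a p38 isoform, which read 76.4 in the combination and lay below the floor with Sonazoid only (at least 3.20-fold higher), and was 1.46-fold higher in ultrasound only than in control. GADD45A and GADD45B, activators of the kinase MAP3K4, were 1.67-fold and 1.48-fold higher in ultrasound only than in control, and 1.29-fold and 1.27-fold higher in the combination than in Sonazoid only.

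The other dual-specificity MAPK phosphatases and the other ERK feedback genes had no member at 2-fold in either ultrasound comparison, which for lists of this size is again near the background given above. The phosphatase list had 6 and 5 measured members with medians of -0.02 and -0.07, and DUSP14 was its highest by the mean of both, at 1.51-fold and 1.64-fold. DUSP16, which acts on JNK and p38, was 1.64-fold higher in ultrasound only than in control and 1.07-fold higher in the combination than in Sonazoid only. The feedback list had 12 and 11 measured members with medians of 0.35 and 0.17, where all genes had 0.023 and -0.0016. SPRED3 (1.51-fold and 1.52-fold), SPRY1 (1.5-fold and 1.33-fold) and SPRY4 (1.35-fold and 1.18-fold) of the same families as SPRED1 and SPRY2 were higher, all with signals of 83.7 or less.

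The list of transcription factors and targets linked to ERK, which also held ELK1, ELK4 and SRF, was likewise divided. Of 16 measured in ultrasound only against control 4 were at least 2-fold higher, and of 15 in the combination against Sonazoid only also 4. Of these, 3 (FOS, FOSB and JUN) were higher in both, and 0 were lower. Over all genes 1.65% and 1.46% were higher, and 0.408% were higher in both. As 0.721% and 0.711% of all genes were lower, a count of 0 lower is near the background. FOS was 4.72-fold and 4.69-fold higher and JUN 2.50-fold in both. FOSB was below the floor without ultrasound and at least 15.1-fold and 12.9-fold higher. EGR3 was 1.91-fold and 2.71-fold higher, while EGR1 differed by -0.27 and 0.17 (log2) at signals of 277 to 404. JUNB was 2.05-fold higher in ultrasound only than in control and 1.03-fold lower in the combination than in Sonazoid only. The list medians were 0.35 and 0.14 (log2), and MYC, ETV4 and ETV5 lay between -0.26 and -0.63 in both comparisons. Of the ligands of the EGF receptor family that were measured, HBEGF differed by -0.09 and 0.16 and TGFA by 0.36 and 0.18.

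**Figure D4:**
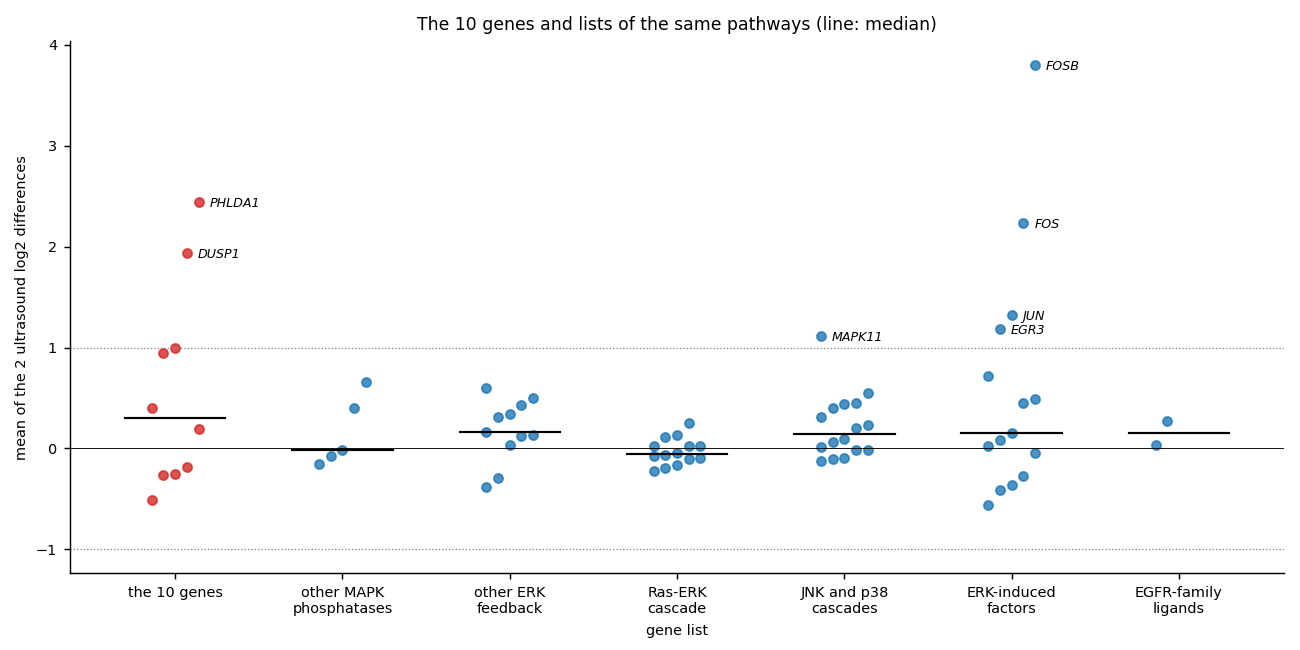
Mean of both ultrasound log2 differences (vertical) of each measured gene, for the 10 genes (red) and 6 lists of related genes (blue); black bars are medians, dotted lines mark a mean of 1, and genes beyond it are named. PHLDA1 (2.44) and DUSP1 (1.94) stand apart from the other 8, as FOSB and FOS do from theirs, while the Ras-ERK cascade lies close to 0.

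The genes whose profile over the 4 arrays was most like that of DUSP1 were found by the Euclidean distance between their 3 log2 differences from control, which share the control array, among 10627 other genes above the floor on all arrays. They were PPP1R15A, a regulator of translation under stress (distance 0.17), HMOX1, the heme-degrading enzyme (0.30), EMP1, a membrane protein (0.34), FCAR, the receptor for IgA (0.36), and DDIT4, an inhibitor of mTORC1 (0.36). PPP1R15A read 933 in the combination, 1043 with ultrasound only, 248 with Sonazoid only and 257 in control, which repeats the high pair and low pair of DUSP1. By the same distance PHLDA1 was in place 32, DUSP10 in place 48 and IER3 in place 75, whereas DUSP5 was in place 1042 and DUSP2 in place 10546.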

How the data were processed

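The deposited values were intensities on a linear scale, between 0.0486 and 21728, with 1 value for each probe set on each array. Per the labels' protocols, DNase-treated total RNA was labelled with a one-cycle kit that amplifies from the 3′ end. The summarisation method and any scaling by the authors were not given in the sources used here. Trimmed means (2% off each end) differed 1.16-fold between arrays, over the 1.1-fold set as limit, so each array was multiplied by a factor between 0.923 and 1.07. Values were floored at 23.8 before the log2 step, and where the floor set 1 of the compared values the fold is given as "at least".

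Of the probe sets, 41097 had 1 symbol, and symbols were updated through Entrez IDs with the RefSeq table of GRCh38.p14 for 41043. A gene was represented by its brightest probe set and counted where either array lay above the floor. The call was 2-fold. The named genes were all probe sets of the 10 genes, list members at least 2-fold different in an ultrasound comparison with both arrays above the floor (at most 4 per list), and the 5 nearest to DUSP1; other list genes were named after their values were seen. The members and lists were chosen with earlier results of these data known. Groups came from the agent label. Scripts ran in Python 3.11.15 with numpy 2.4.6, and were tested on simulated data. The 6 alternatives are described at the end. Precision is limited by the number of arrays.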

Additional observations from a re-analysis of the deposited data

Results flagged for a closer look

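A pair of probe sets differed in direction between the ultrasound comparisons with a departure of at least 1 (log2). In neither case was the difference tested. For probe set 217998_at of PHLDA1 the log2 difference was 1.04 in the combination against Sonazoid only and -0.83 in ultrasound only against control, a departure of 1.87. For probe set 226034_at of DUSP4 it was 0.58 and -0.46 in the same order, a departure of 1.04. Both probe sets read under 151 on all arrays. The 95th percentile of the departure of dim genes, by their brightest probe sets, was 1.21, which lies between these departures. Opposite signs with a departure of at least 1 were seen in 2 of 20 probe sets of the 10 genes above the floor on all arrays and in 657 of 19654 such probe sets with 1 symbol (3.34%). Both had their lowest value on the Sonazoid only array and their highest on the control array.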

How the results depend on the processing

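No fit with a replicate block was made, since each group is 1 array and the labels number no replicates, and no array was left out. Quantile normalisation and the values as deposited left every count of the 10 genes at 2-fold within 1.5 times of the value reported, and moved no member's log2 difference by over 1.5-fold. The count of genes at least 2-fold higher in ultrasound only against control was 3. It was 2 with no floor and 16 added, and 2 with gene-specific probe sets. It was 1 with the floor at the 75th percentile and 1 with the mean of all probe sets. For DUSP1 that mean includes a probe set below the floor on all arrays, which adds no difference. That of the combination against Sonazoid only (3) was 2 with the mean of all probe sets and 1 with the stricter floor. It was also 1 with gene-specific probe sets, which leave out DUSP1 and IER3. That of the combination against control (4) was 1 with the stricter floor, 2 with no floor and 16 added, 2 with the mean of all probe sets and 2 with gene-specific probe sets. No count of lower genes moved under these alternatives. PHLDA1 was at least 2-fold higher in these 3 comparisons under each alternative, from 1.12 to 2.57 (log2) in ultrasound only against control, where DUSP1 ran from 0.82 to 1.87, DUSP10 from 0.23 to 1.11 and IER3 from 0.57 to 0.81. The stricter floor lies above the signals of DUSP1, DUSP10, PHLDA1 and IER3 without ultrasound, and so shortens their differences by construction. Signal over background limits the dim genes, SPRED1 and DUSP10 among the 10.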

Other observations

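The kinase genes MAPK3 and MAP3K8 were named after their values were seen. In Sonazoid only against control, MAPK3 was the 1 of 14 Ras-ERK genes at least 2-fold lower, and none was higher. MAP3K8 was the 1 of 16 JNK and p38 genes at least 2-fold higher, and none was lower. Over all genes 0.715% were lower and 0.652% higher. In the combination against ultrasound only no gene of either list was at least 2-fold different, where 0.7% of all genes were higher and 1.16% lower. MAPK3, which encodes ERK1, read 57.4 with Sonazoid only and 146 in control, 2.55-fold lower, and 91.9 in the combination and 129 with ultrasound only, 1.40-fold lower. MAP3K8, a kinase upstream of ERK in activated macrophages, was above the floor with Sonazoid only, at 51.5, and below it in control, at least 2.16-fold higher, and read 57.3 in the combination and 37.1 with ultrasound only, 1.55-fold higher. Both signals are in the dim range.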
